A study of Homo sapiens with 6 samples.

Results

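The 9 genes described here encode carrier proteins that hepatocytes secrete into plasma: ALB, AHSG, FETUB, TTR, TF, RBP4, AMBP, GC and HRG. They were chosen by symbol, through the Entrez gene ID of each probe set, and all 9 were found among 24726 probe sets. Affymetrix arrays read their transcripts in 6 subcutaneous tumours of nude mice, grown from Huh7, a long-established line of human liver carcinoma cells. Cells of 3 tumours carried a plasmid for human insulin receptor isoform A with a GFP marker (IR-A tumours), and those of the other 3 the empty vector (control tumours). Cells of both groups had been selected with G418 and sorted for GFP, and all were hosted by nude mice, which lack a thymus. The construct's name points to a CMV promoter, which is not a liver promoter, and nothing in the labels tells which mouse or culture a tumour came from. The p-values thus reflect the spread among these tumours alone, part of which may be technical.

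Plasma carriers are made in the rough endoplasmic reticulum of hepatocytes, secreted without storage and taken up again by receptors in target tissues. Albumin carries fatty acids and many drugs, transferrin carries iron, and transthyretin, retinol-binding protein and vitamin D-binding protein carry thyroid hormone, vitamin A and vitamin D. High expression of such genes marks differentiated hepatocytes, and many hepatoma lines keep part of it. In inflammation the liver lowers several of these transcripts, which are then called negative acute phase genes.

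IR-A tumours had a higher mean signal than control tumours for all 9 genes, but none passed limma's test after adjustment over all probe sets. The difference was very unequal among the genes. FETUB, HRG and GC, which encode fetuin-B, histidine-rich glycoprotein and vitamin D-binding protein, differed by 3.44, 2.27 and 0.94 on the log2 scale. The other 6 differed by 0.03 to 0.43. Control tumour 2 lay close to the IR-A tumours in FETUB, HRG and GC, and FETUB and HRG passed the test in 1 setting, without this tumour. Leaving out the control nearest to the IR-A tumours widens a difference by construction, so that pass is no independent support, and without control tumour 1 or 3 the differences were smaller.

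Promoter sequence is shown for FETUB and HRG, which had the largest differences, for AHSG, their neighbour on chromosome 3 with a small one, and for ALB, the brightest gene of the group. Each line gives the 250 bases before the transcription start in GRCh38.p14, from RefSeq, 5′ to 3′ on the gene's strand. RefSeq promoters were matched for 7 of the 9 genes. FETUB has 2 annotated starts, and the windows of both are printed. Capitals mark matches on either strand to the C/EBP motif TTGCNNAA, the forkhead motif TGTTTNC, the HNF4 motif AAAGTCC, the HNF1 motif GTTAAT, the STAT motif TTCNNNGAA or the TATA box TATAAA.
FETUB upstream start, chr3:186635719-186635968, plus strand: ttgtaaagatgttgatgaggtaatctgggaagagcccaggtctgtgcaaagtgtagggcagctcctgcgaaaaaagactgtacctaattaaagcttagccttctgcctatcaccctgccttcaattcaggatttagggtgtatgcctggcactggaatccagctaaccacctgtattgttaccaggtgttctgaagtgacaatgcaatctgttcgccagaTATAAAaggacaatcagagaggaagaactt
FETUB downstream start, chr3:186640149-186640398, plus strand: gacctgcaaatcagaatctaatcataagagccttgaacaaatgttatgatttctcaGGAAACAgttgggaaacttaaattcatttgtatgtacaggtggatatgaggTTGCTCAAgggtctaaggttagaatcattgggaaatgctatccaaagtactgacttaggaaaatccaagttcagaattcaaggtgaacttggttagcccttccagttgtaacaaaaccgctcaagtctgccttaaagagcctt
HRG, chr3:186665764-186666013, plus strand: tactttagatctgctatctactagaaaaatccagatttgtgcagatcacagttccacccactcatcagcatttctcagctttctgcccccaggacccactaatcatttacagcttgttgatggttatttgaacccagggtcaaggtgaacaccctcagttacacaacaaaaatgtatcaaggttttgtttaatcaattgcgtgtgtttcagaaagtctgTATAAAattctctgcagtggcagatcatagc
AHSG, chr3:186612810-186613059, plus strand: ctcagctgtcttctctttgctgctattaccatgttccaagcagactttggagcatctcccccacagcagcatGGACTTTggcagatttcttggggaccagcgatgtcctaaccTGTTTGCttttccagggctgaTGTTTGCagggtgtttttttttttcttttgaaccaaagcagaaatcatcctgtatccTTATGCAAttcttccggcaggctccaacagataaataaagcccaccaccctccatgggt
ALB, chr4:73404037-73404286, plus strand: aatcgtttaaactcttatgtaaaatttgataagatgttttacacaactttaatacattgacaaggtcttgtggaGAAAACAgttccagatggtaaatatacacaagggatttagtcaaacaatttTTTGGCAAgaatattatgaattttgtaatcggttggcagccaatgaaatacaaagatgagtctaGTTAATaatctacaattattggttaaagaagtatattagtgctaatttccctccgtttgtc

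The upstream FETUB window and the HRG window each held 1 match, a TATA box that begins 30 bases before the start in FETUB and 31 in HRG. The downstream FETUB window held 1 C/EBP and 1 forkhead match. Which FETUB start the tumours used was not analysed here. The AHSG window held 4 matches, 2 forkhead, 1 HNF4 and 1 C/EBP, and no TATAAA. The ALB window held 1 forkhead, 1 C/EBP and 1 HNF1 match. No match overlapped another in these 5 windows. Of 35116 promoter windows of this length, 10.7% held the TATA box, 15.5% the forkhead motif, 9.05% the C/EBP motif, 6.23% the HNF1 motif, 3.20% the HNF4 motif and 6.57% the STAT motif. Of the 11 windows of the carriers, 4 held the TATA box, 4 the forkhead motif and 5 the C/EBP motif. The HNF4 motif was in 2, the HNF1 motif in 1 and the STAT motif in 1. Windows of RBP4, which differed by 0.03 on the log2 scale, also held the TATA box. The window of KNG1, a further neighbour on chromosome 3 that differed by 1.80, held forkhead and C/EBP matches without it. Whether motifs go with the differences was not tested. These letter matches are a description of the windows and are not binding sites shown here.

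The arrays were checked against their labels. INSR, the gene of the added receptor, read 10.65, 11.31 and 11.01 in IR-A tumours 1 to 3 and 8.04, 7.61 and 8.47 in control tumours 1 to 3. The INSR log2 difference was 2.95 (SE 0.26), or 7.75-fold, and the groups did not overlap. Its adjusted p in limma over all tumours was 0.0769, so even the added gene did not pass the test. Control tumour 2 had the lowest INSR signal of all tumours. Why it lay near the IR-A tumours in FETUB, HRG and GC was not tested. Hepatocyte identity genes such as APOA1, APOB and FGB were bright, with a mean over 14 genes of 11.60 to 11.63 in IR-A tumours and of 11.09, 11.51 and 11.38 in control tumours. Across all probe sets, control tumour 2 correlated with the IR-A arrays at a mean of 0.987 and with the other controls at 0.982. Each result on FETUB, HRG and GC is therefore given with and without this tumour.

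FETUB encodes fetuin-B, a cystatin superfamily protein that inhibits the protease ovastacin and so keeps the egg coat penetrable in mice. Its log2 signal was 10.01, 9.01 and 9.01 in IR-A tumours, against 4.81, 8.14 and 4.75 in control tumours. The groups did not overlap, and the highest control lay 0.86 below the lowest IR-A tumour. Control tumours 1 and 3 read near the median probe set of the table (4.70), while control tumour 2 had covered 73.7% of the distance between the IR-A mean and the mean of the other controls, counted from the controls. The means were 9.34 ± 0.58 in IR-A and 5.90 ± 1.94 in control tumours (SD, n = 3 each). The log2 difference of 3.44 (SE 0.91, 95% interval 1.25 to 5.63) corresponds to 10.9-fold, and its adjusted p from limma was 0.200. Without control tumour 2 the difference was 4.56 (SE 0.33), or 23.6-fold with an interval from 13.4 to 41.8, and passed at an adjusted p of 0.0255. It was 2.90 (adjusted p = 0.498) without control tumour 1 and 2.87 (adjusted p = 0.370) without control tumour 3.

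HRG encodes histidine-rich glycoprotein, which binds heme, metal ions and heparin. Its log2 signal was 8.01, 6.85 and 7.60 in IR-A tumours, against 4.23, 6.99 and 4.44 in control tumours. The groups overlapped because control tumour 2 lay above IR-A tumour 2, whereas the other controls lay below the median probe set. The means were 7.49 ± 0.59 in IR-A and 5.22 ± 1.54 in control tumours (SD, n = 3 each). The log2 difference was 2.27 (SE 0.75, 95% interval 0.48 to 4.05), or 4.82-fold, with an adjusted p of 0.262 in limma. Without control tumour 2 it was 3.16 (SE 0.34), or 8.91-fold, and passed at an adjusted p of 0.0320. It was 1.77 (adjusted p = 0.589) without control tumour 1 and 1.88 (adjusted p = 0.482) without control tumour 3. FETUB and HRG were the 2 of 9 carriers called in that setting, in which 0.797% of all probe sets were called higher.

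GC, the vitamin D-binding protein, also binds actin released from damaged cells. Its log2 signal was 12.12, 11.68 and 11.85 in IR-A tumours, against 10.85, 11.70 and 10.28 in control tumours. Control tumour 2 lay just above IR-A tumour 2, so the groups overlapped, and the remaining controls were clearly dimmer than every IR-A tumour. The means were 11.89 ± 0.22 in IR-A and 10.94 ± 0.71 in control tumours (SD, n = 3 each). The log2 difference of 0.94 (SE 0.34, 95% interval 0.12 to 1.77), or 1.92-fold, had an adjusted p of 0.302 in limma. Without control tumour 2 it was 1.32 (SE 0.21, adjusted p = 0.0577), and without control tumour 3 it was 0.61 (adjusted p = 0.490).

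**Figure D1:**
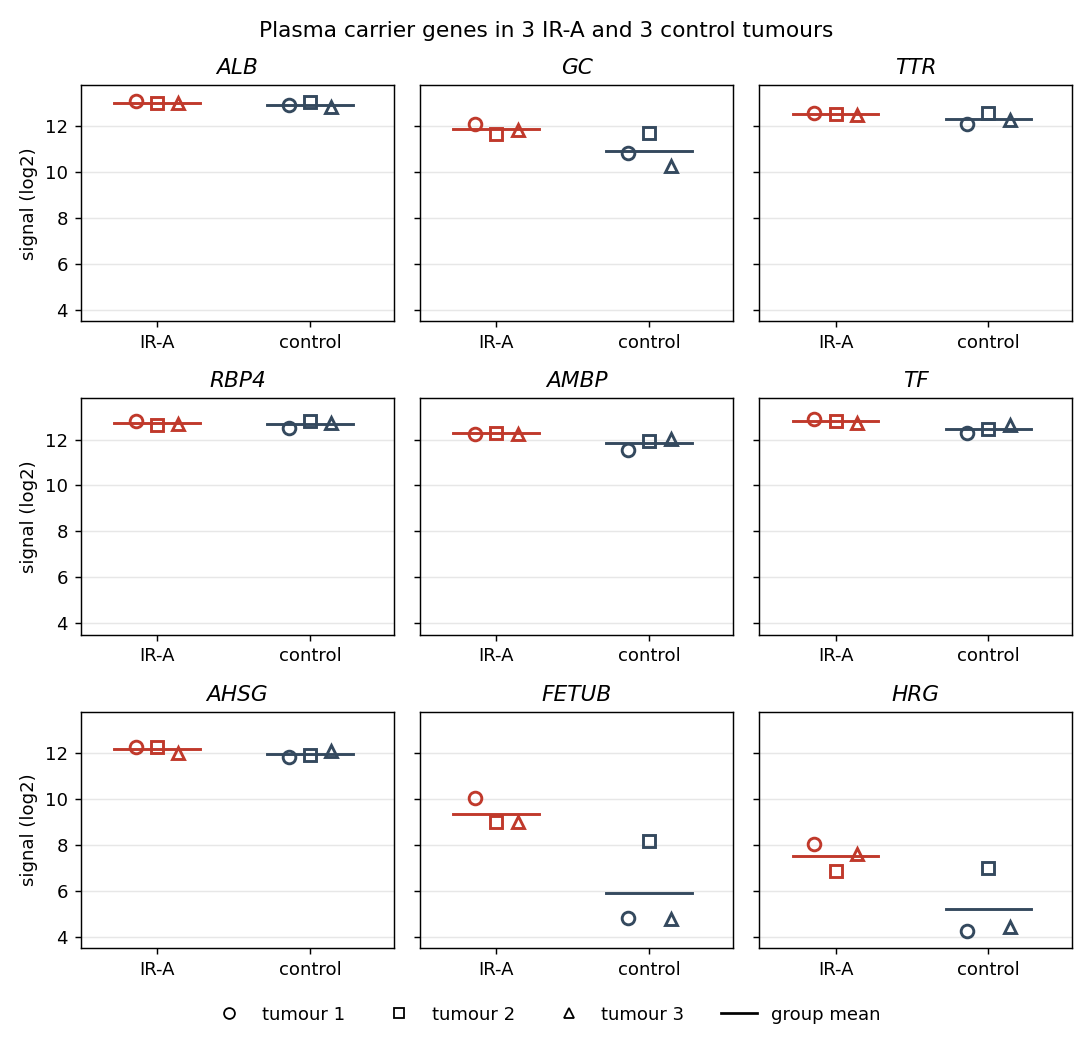
Log2 signal (y axis, the same in all panels) of each carrier gene in IR-A and control tumours, with 1 symbol per tumour and a line at the group mean. FETUB, HRG and GC have control tumours 1 and 3 well below the IR-A tumours and control tumour 2 (squares) near them, while the other 6 genes stay between 11.56 and 13.09 in all 6 tumours.

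The lipocalin family carriers, RBP4 and AMBP, were bright in every tumour. AMBP encodes a precursor that is cut into alpha-1-microglobulin, a heme-binding lipocalin, and bikunin, a protease inhibitor. Its log2 signal was 12.26, 12.30 and 12.26 in IR-A tumours, against 11.56, 11.96 and 12.01 in control tumours. The groups did not overlap, and the IR-A tumours lay within 0.04 of each other. The log2 difference was 0.43 (SE 0.14, 95% interval 0.10 to 0.76), or 1.35-fold, with an adjusted p of 0.249 in limma. RBP4, which carries retinol, read 12.80, 12.62 and 12.69 in IR-A tumours, against 12.50, 12.79 and 12.71 in control tumours. Its groups were interleaved, and the log2 difference was 0.03 (95% interval -0.23 to 0.30, adjusted p = 0.930 in limma), so a change beyond about 1.23-fold upward or to below 0.851-fold lies outside the interval.

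TF encodes transferrin, the iron carrier of plasma. Its log2 signal was 12.89, 12.81 and 12.71 in IR-A tumours, against 12.28, 12.47 and 12.62 in control tumours. The groups did not overlap, with 0.09 between the nearest tumours. The log2 difference was 0.35 (SE 0.12, 95% interval 0.07 to 0.63), or 1.28-fold, with an adjusted p of 0.272 in limma. In contrast to FETUB, HRG and GC, control tumour 2 lay here between the other controls.

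TTR encodes transthyretin, which carries thyroxine and holds RBP4 in the circulation. Its log2 signal was 12.59, 12.54 and 12.49 in IR-A tumours, against 12.09, 12.58 and 12.27 in control tumours. Control tumour 2 again lay within the IR-A range and the other controls lay below it. The log2 difference was 0.22 (SE 0.14, 95% interval -0.11 to 0.55, adjusted p = 0.547 in limma). It was 0.36 without control tumour 2 and 0.11 without control tumour 1.

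ALB, serum albumin, read 13.09, 13.01 and 12.99 in IR-A tumours, against 12.93, 13.04 and 12.82 in control tumours on the log2 scale. It was among the 9 brightest of 24726 probe sets on every array, and its groups overlapped through control tumour 2. The log2 difference was 0.10 (SE 0.10, 95% interval -0.13 to 0.33, adjusted p = 0.713 in limma), or at most 1.26-fold at the upper end of the interval. AHSG, fetuin-A, which keeps calcium phosphate from precipitating in plasma, read 12.24, 12.28 and 11.99 in IR-A tumours, against 11.83, 11.92 and 12.07 in control tumours. Here the groups overlapped because control tumour 3 lay above IR-A tumour 3. The AHSG log2 difference was 0.23 (SE 0.12, 95% interval -0.05 to 0.51, adjusted p = 0.457 in limma).

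**Figure D2:**
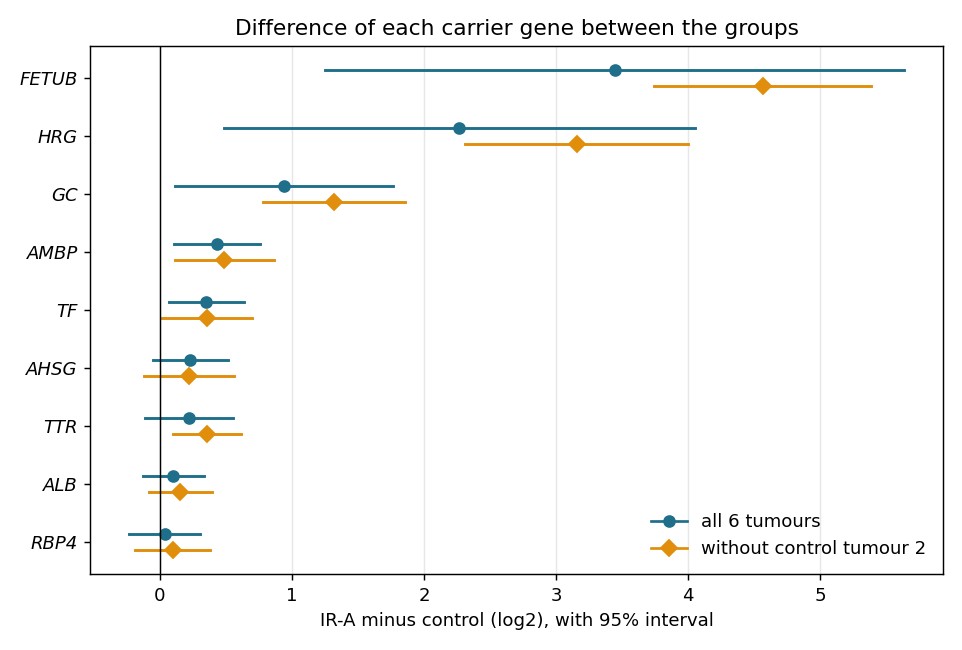
Log2 difference, IR-A minus control, of each carrier gene (points) with its 95% interval from limma (lines), over all 6 tumours and without control tumour 2. FETUB (3.44 and 4.56), HRG (2.27 and 3.16) and GC (0.94 and 1.32) lie apart from the other 6 genes, whose values over all tumours run from 0.03 to 0.43.

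As a group, 0 of 9 carriers passed an adjusted p of 0.05 in limma, as did 0 of all probe sets (0%), that of the added INSR included. At an unadjusted p under 0.05 there were 5 of 9, all higher in IR-A tumours (FETUB, AMBP, HRG, TF and GC), where 7.10% of all probe sets were higher and 7.03% lower. The groups did not overlap in 3 of 9 (FETUB, TF and AMBP), against 7.73% of probe sets higher and 9.45% lower. The IR-A mean lay above the control mean in 9 of 9, against 44.0% of probe sets, and the median log2 difference was 0.35, against -0.03 over all probe sets. An exact permutation test of 3 against 3 tumours cannot go below 0.1, the value that FETUB, TF and AMBP reached (two-sided). In tumours measured in bulk, fewer hepatocyte-like cells and less transcript per cell cannot be told apart. The 6 brightest carriers lay near the top of the signal range, which ended at 13.22, and whether their probe sets were saturated was not tested.

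Neighbouring genes of the same family had unlike differences between the groups, although differences between genes were not tested. AHSG, FETUB, HRG and KNG1 lie side by side on chromosome 3 and share cystatin domains. KNG1, kininogen, the precursor of bradykinin, read 11.89, 11.71 and 11.70 in IR-A tumours, against 9.15, 11.20 and 9.56 in control tumours. Its groups did not overlap, and control tumour 2 was the highest control, as in FETUB and HRG. The KNG1 log2 difference was 1.80 (SE 0.50, adjusted p = 0.212 in limma), and 2.41 without control tumour 2. The 3 measured genes before AHSG and the 3 after KNG1, chosen after values were seen, differed by -0.15 (ADIPOQ) to 0.34 (TBCCD1).

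On chromosome 4 the albumin family genes ALB, AFP and AFM adjoin each other, and GC, a more distant relative, lies apart from them. AFP, alpha-fetoprotein, the fetal albumin that hepatomas often make, read 12.68, 12.71 and 12.58 in IR-A tumours, against 12.38, 12.74 and 12.57 in control tumours, and its groups overlapped. AFM, afamin, a vitamin E carrier, read 7.48, 6.45 and 6.28 in IR-A tumours, against 3.83, 6.41 and 3.97 in control tumours. Control tumours 1 and 3 were dim for AFM and control tumour 2 lay within the IR-A range. The AFM log2 difference was 2.00 (SE 0.72, adjusted p = 0.295 in limma), or 2.84 without control tumour 2. That of AFP was 0.09 (SE 0.12, adjusted p = 0.789), or 0.18 without that tumour. The 3 measured genes on either side differed by -0.13 (ANKRD17) to 0.06 (CXCL6).

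**Figure D3:**
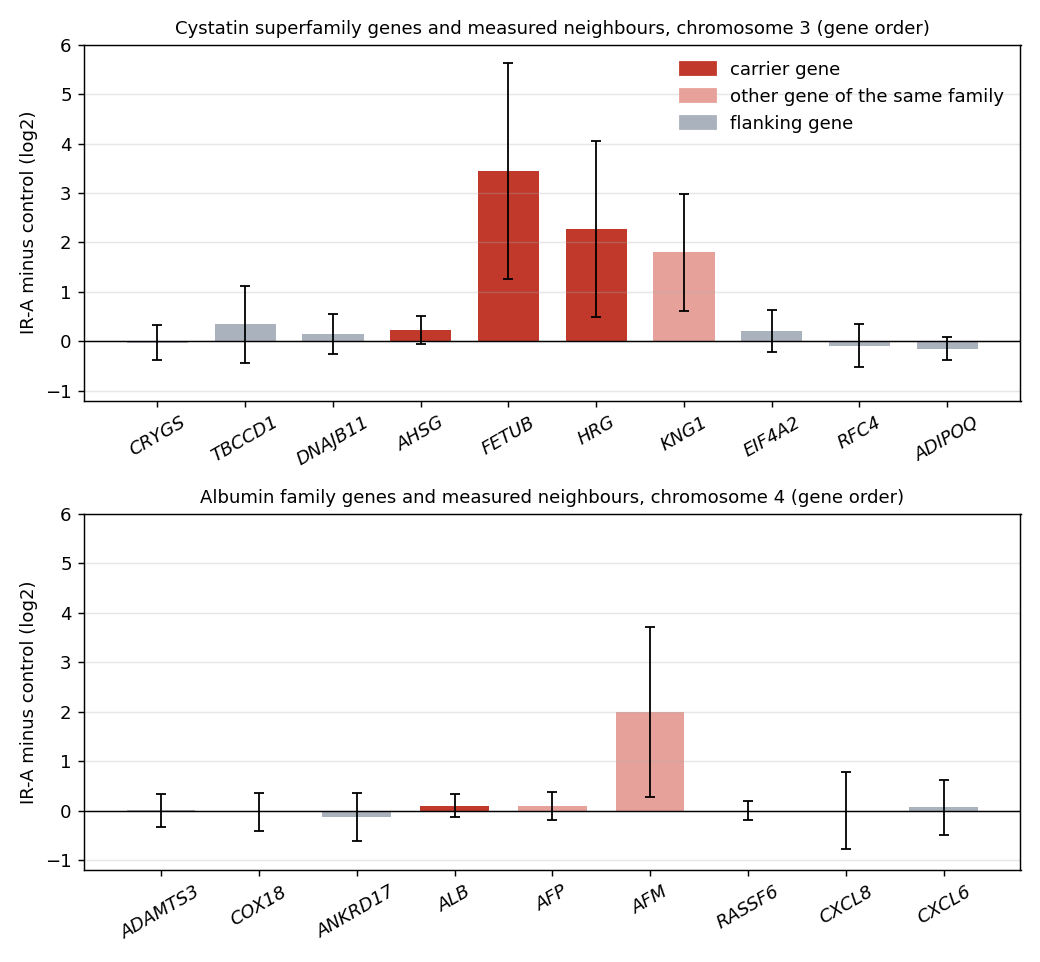
Log2 difference, IR-A minus control, with 95% intervals from limma, of the cystatin superfamily genes on chromosome 3 (top) and the albumin family genes on chromosome 4 (bottom), in gene order with 3 measured genes on each side. Bars of FETUB (3.44), HRG (2.27), KNG1 (1.80) and AFM (2.00) stand above those of AHSG (0.23), ALB (0.10), AFP (0.09) and the flanking genes.

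**Figure D4:**
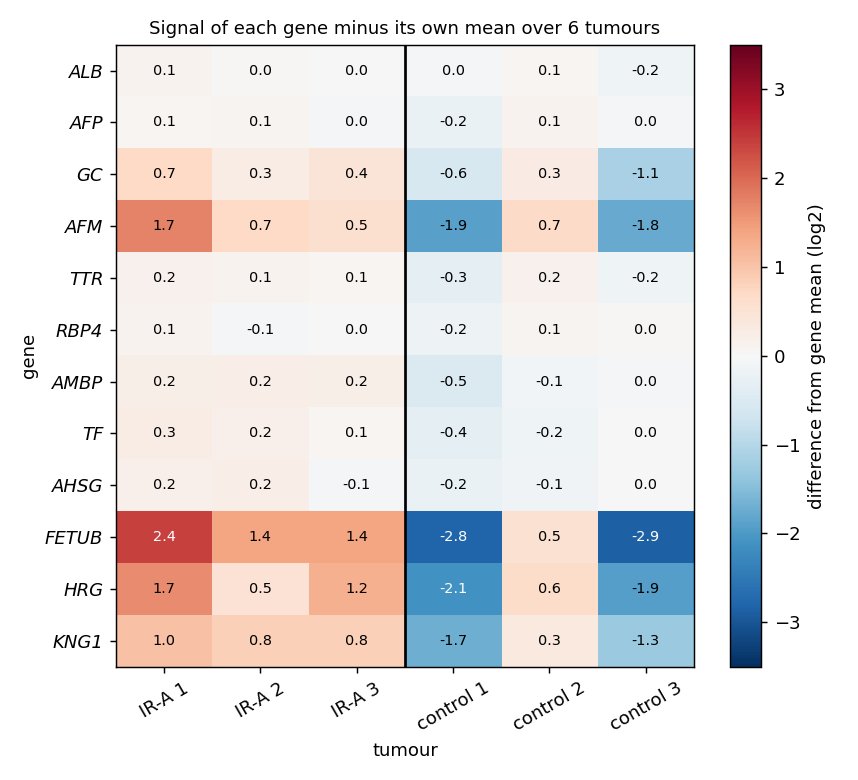
Log2 signal of the 9 carrier genes and their relatives AFP, AFM and KNG1 (rows) in each tumour (columns), minus the mean of that gene over the 6 tumours. In FETUB, HRG, GC, KNG1 and AFM control tumours 1 and 3 lie below the gene's mean and control tumour 2 lies above it. The same order of signs, with smaller deviations, is seen in ALB, AFP and TTR. ALB, AFP, TTR, RBP4, TF, AMBP and AHSG stay within about 0.5 of their mean.

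The counts of the gene lists that follow stand beside the same shares over all probe sets, of which 7.10% were higher and 7.03% lower at an unadjusted p under 0.05 and 44.0% had a higher mean in IR-A tumours. Among 18 other plasma carriers and binding proteins, 0 passed after adjustment, 9 were higher and 1 lower at an unadjusted p under 0.05, and 16 had a higher mean in IR-A tumours (median log2 difference 0.32). The smallest p values belonged to HPX, hemopexin, which carries heme, with 2.23 (SE 0.42, adjusted p = 0.147 in limma), and A1BG, a plasma glycoprotein of the immunoglobulin superfamily, with 1.90 (SE 0.39, adjusted p = 0.148). Hemopexin read 10.57, 10.05 and 10.38 in IR-A tumours, against 7.29, 9.02 and 8.01 in control tumours, so that its groups did not overlap even with control tumour 2. Bikunin is linked in plasma to the heavy chains encoded by ITIH1 and ITIH2. ITIH2 read 12.80, 12.53 and 12.70 in IR-A tumours, against 12.22, 12.34 and 12.10 in control tumours, a log2 difference of 0.46 (SE 0.11, adjusted p = 0.183 in limma) beside 0.43 for AMBP. ITIH1 read 8.70, 9.12 and 8.57 in IR-A tumours, against 6.17, 8.05 and 7.50 in control tumours, a log2 difference of 1.56 (SE 0.46, adjusted p = 0.230). Of the 5 genes listed as bikunin partners, 3 were higher at an unadjusted p under 0.05, the other being ITIH4 with 0.83 (SE 0.24, adjusted p = 0.225), and 0 passed.

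Receptors that take up or recycle the carriers differed by 0.01 to 0.92 on the log2 scale. Of 9 measured, 0 passed, 2 were higher at an unadjusted p under 0.05, and all 9 had a higher mean in IR-A tumours (median 0.23), beside 7.10% and 44.0% of all probe sets. The largest difference was that of LRP1, a broad endocytic receptor of liver that also takes up hemopexin with its heme. LRP1 read 8.94, 10.13 and 8.74 in IR-A tumours, against 8.34, 7.92 and 8.78 in control tumours. Its groups overlapped, and control tumour 2 was the lowest of the 6 tumours. The LRP1 log2 difference of 0.92 (SE 0.40, adjusted p = 0.369 in limma) was close in size to that of GC. The 2 receptors higher at an unadjusted p under 0.05 were CUBN, cubilin, a kidney receptor for albumin and vitamin D-binding protein, which was dim at 4.33 in IR-A and 3.73 in control tumours, with a log2 difference of 0.60 (SE 0.16, adjusted p = 0.212 in limma), and TFR2, a liver transferrin receptor, with 0.53 (SE 0.21, adjusted p = 0.338). The general transferrin receptor TFRC differed by 0.38 (SE 0.21) and FCGRT, which returns albumin to the circulation, by 0.23 (SE 0.14). STRA6, the retinol uptake receptor (0.01), and LRP2, megalin (0.20), were dim in both groups, below the median probe set.

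Genes that handle the retinoid and vitamin D cargo included 4 of 9 higher at an unadjusted p under 0.05, with 0 passing and a median of 0.33. RDH10, which oxidises retinol, differed by 0.80 (SE 0.20, adjusted p = 0.181 in limma) and DHCR7, which turns the vitamin D precursor into cholesterol, by 0.65 (SE 0.18, adjusted p = 0.213). Among 14 measured transcription factors of plasma protein genes, 0 passed, 3 were higher and 1 lower at an unadjusted p under 0.05, with a median of 0.03. CEBPD, an inflammation-induced C/EBP factor, differed by 0.84 (SE 0.20, adjusted p = 0.168) and HLF, a circadian factor, by -0.93 (SE 0.26, adjusted p = 0.212), while CEBPA, the main C/EBP factor of liver, differed by 0.01 (SE 0.19). Of 17 measured genes of the secretory pathway, 2 were higher at an unadjusted p under 0.05 and 0 passed (median 0.07), and 10 had a higher mean in IR-A tumours, beside 7.10% and 44.0% of all probe sets. The groups did not overlap in 2 genes higher and 2 lower in IR-A tumours, beside 7.73% and 9.45% of all probe sets. The lower ones were SSR3 (-0.36) and SPCS1 (-0.24), named after their values were seen. MIA2, which helps load large cargo at endoplasmic reticulum exit sites, differed by 1.01 (SE 0.23, adjusted p = 0.164) and its relative MIA3 by 0.26 (SE 0.11, adjusted p = 0.351). In the hepatocyte identity list, 6 of 14 were higher at an unadjusted p under 0.05 and 0 passed (median 0.35). The smallest p values were those of A1CF (0.48, SE 0.13), a cofactor in the editing of APOB transcripts, and APOB itself (0.42, SE 0.14).

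Host cell types, and bile duct besides, were assessed through human probe sets, which register mouse RNA only as far as it hybridises to them. The summed log2 signal of 11 macrophage markers was 56.43 to 57.14 in IR-A and 53.83 to 54.83 in control tumours, with 8 of them below the median probe set. The higher sum lay in TYROBP (1.78) and CD68 (0.62), higher at an unadjusted p under 0.05, while the other 9 differed by -0.24 to 0.27, and over the list 6 had a higher and 5 a lower mean in IR-A tumours (median 0.02). The sum of 10 fibroblast markers was 46.16 to 47.79 in IR-A and 43.55 to 46.48 in control tumours, with 7 of the 10 higher on average in IR-A tumours (median 0.11). LUM (1.26), COL1A2 (0.83) and COL1A1 (0.40) were higher at an unadjusted p under 0.05, where 7.10% of all probe sets were. LUM was dim, with means of 4.24 in IR-A and 2.98 in control tumours, and 4 of the 10 lay below the median probe set. The mean was lower in 3 of the 10, with PDGFRA at -0.87. The sum of 6 adipocyte markers was 26.53 to 27.32 in IR-A and 24.69 to 25.97 in control tumours, which rested on PLIN1 (1.64), since 4 of the 6 had a lower mean in IR-A tumours (median -0.01). Control tumour 2 had sums of 54.56 for macrophage and 45.12 for fibroblast markers, below every IR-A tumour. It was the highest control in TYROBP, LUM and COL1A2, between the others in CD68 and the lowest in COL1A1. For 6 erythroid markers sums were 22.68 to 22.86 in IR-A and 21.28 to 22.58 in control tumours, lowest in control tumour 2. Of the 6, 5 lay below the median probe set and 5 were higher on average in IR-A tumours. For 6 bile duct markers sums were 36.38 to 37.41 in IR-A and 35.22 to 36.19 in control tumours. Of these, 4 were higher and 2 lower on average in IR-A tumours, with the largest differences in EPCAM (0.76) and SOX9 (0.45). For 8 endothelial, 7 skeletal muscle and 5 keratinocyte markers the ranges of the groups overlapped. Of these, 6 endothelial, 7 skeletal muscle and 2 keratinocyte markers had a lower mean in IR-A tumours. The part of these cell types in the carrier differences was not tested.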

How the data were processed

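The authors deposited 1 log2 signal for each probe set on each array. The submitters' processing notes name RMA and Partek, with neither version nor role. Per the labels' protocols, Trizol RNA (500 ng) was labelled with a whole-transcript kit. The log2 scale was read from the values (1.91 to 13.22), with array model and genome build not given in the sources used here. On arrays in general, background can compress dim signals and saturation bright ones. The number of arrays limits the precision.

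GEO's probe annotation named 23934 of 24726 probe sets, and GC was matched through its Entrez ID in RefSeq (GRCh38.p14). All probe sets entered limma 3.58.1 (R 4.3.3, lmFit and eBayes, Benjamini-Hochberg adjustment, threshold 0.05), IR-A minus control, with no filter. Intervals are 95% and moderated. The script was tested on simulated data.

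The members and lists were chosen with earlier results of these data known. Named genes were the members, INSR, fixed relatives, partners and receptors, the 2 of smallest p per list, and for members with an SD over 0.5 the 2 genes of nearest profile. List genes without a named probe set were not analysed here. Alternatives covered normalization, dim-probe filters, moderation, array weights, the replicate block, thresholds and leaving out each tumour. Figures were drawn with matplotlib 3.10.9.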

Additional observations from a re-analysis of the deposited data

How the results depend on the processing

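The count of carriers called stayed at 0 of 9 under quantile normalization, median centring, both filters on dim probe sets, array weights, the replicate block, and moderation that was robust, trended or left out, and was 0 to 2 with 1 tumour left out. Both calls, FETUB and HRG, appeared only without control tumour 2, the control nearest to the IR-A tumours in these genes. At an unadjusted p under 0.05 the count was 5. The count over all probe sets was 14 without the dimmest 25%, 20 without the dimmest 50%, 11 with array weights, 18 at an adjusted p under 0.1, 3493 at an unadjusted p under 0.05, and 0 to 308 with 1 tumour left out, with calls only without control tumour 2. Fewer probe sets are tested under the filters, and control tumour 2 had the lowest array weight (0.476). The median log2 difference of the carriers was 0.46 under quantile normalization and 0.26 to 0.43 with 1 tumour left out, where the lowest value came without control tumour 1. The cause of these shifts was not tested. All carriers but RBP4 kept their direction in the 15 settings run on each. RBP4 was -0.049 without control tumour 1 and -0.014 without IR-A tumour 1, and with 1 tumour left out it ran up to 0.095. The labels do not tell whether same-numbered tumours belong together. Deviations of same-numbered tumours from their group means correlated at -0.294, -0.358 and 0.02, and those of other pairs at -0.321 to 0.504. Deviations from a mean of 3 tumours are tied to each other, so these values cannot decide whether the tumours are paired. With the replicate block, 0 of 9 carriers were called and FETUB had an adjusted p of 0.359 in limma. Over all settings the adjusted p ran from 0.0255 to 0.546 for FETUB, 0.0320 to 0.615 for HRG and 0.0577 to 0.652 for GC. Signal over background was not analysed here, so dim control values carry the least certain folds. Such values were those of FETUB, HRG and AFM, and the still dimmer ones of CUBN, LUM and SERPINA7 (thyroxine-binding globulin).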

Other observations

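The genes whose profiles over the 6 tumours lay nearest to those of the variable carriers were found by the root mean square distance between log2 profiles, each centred on its own mean. Nearest to FETUB were ERP27, an endoplasmic reticulum protein of the disulfide isomerase family, at a distance of 0.29, and PRG4, lubricin, at 0.41. ERP27 read 9.79, 9.03 and 8.87 in IR-A tumours, against 4.37, 7.77 and 5.20 in control tumours, with control tumour 2 highest among the controls as in FETUB. Nearest to HRG were AADAC, a liver arylacetamide deacetylase, at 0.15, and CDS1, an enzyme of phospholipid synthesis, at 0.27. AADAC read 10.19, 9.27 and 9.66 in IR-A tumours, against 6.50, 9.16 and 6.93 in control tumours. Its log2 difference of 2.18 (SE 0.68) did not pass (adjusted p = 0.245 in limma). Nearest to GC were CDC20B at 0.09 and TENT5C, a poly(A) polymerase, at 0.11. Among the carriers themselves, FETUB and HRG lay 0.68 apart, HRG and GC 0.89, and FETUB and GC 1.48. GC was nearer to all the remaining carriers, at 0.50 (TTR) to 0.60 (RBP4), than to HRG. FETUB and AHSG, its neighbour on chromosome 3, lay 1.99 apart, and those remaining carriers lay 1.88 (AMBP) to 2.03 (RBP4) from FETUB. The profiles were not scaled, so the distance also reflects how much each gene varied. These genes were picked for likeness in the same 6 tumours.

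Of the 18 carriers and binding proteins outside the 9, 16 had a higher mean in IR-A tumours and 2 a lower one, where 44.0% of all probe sets were higher. CP, ceruloplasmin, a copper carrier, had a log2 difference of 0.92 (SE 0.29), and SERPINA7, thyroxine-binding globulin, one of 1.50 (SE 0.41), with groups that did not overlap in either. SERPINA7 was dim, with means of 5.17 in IR-A and 3.67 in control tumours. SERPINA6, corticosteroid-binding globulin, differed by -0.09 (SE 0.21), and APOM, which carries phosphorylated sphingosine, by -0.63 (SE 0.24). These 4 were chosen after their values were seen, and none passed after adjustment in limma.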
